A study of Drosophila melanogaster with 6 samples.

Results

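The lipocalin genes NLaz, GLaz and Karl were followed in S2* cells given or not given 20-hydroxyecdysone (20E), the insect moulting hormone. S2* is a variant of the S2 line of Drosophila melanogaster, which resembles macrophages. The 3 genes were chosen by measured values, the treated against the untreated arrays, in which NLaz stood among the highest differences. Taken for them were all probe sets whose annotation names a single gene and that gene is NLaz, GLaz or Karl. This gave 4 of 18769 probe sets and 3 of 11982 named genes, with 1 probe set each for NLaz (1630593_at) and GLaz (1625947_at) and 2 for Karl (1628715_a_at and 1633385_at). All 4 had a value on every array. The 3 untreated samples received no hormone, and the 3 treated samples received 20E at 1 µM for 24 h. Both groups were of the same line, cultured with serum at 27 °C, and each sample was total RNA on 1 Affymetrix Drosophila 2.0 array. No solvent or time point is recorded for the untreated cells, so solvent and time in culture cannot be told apart from 20E. Whether replicates came from separate cultures is not stated, so p-values measure the spread among these samples alone, and that spread may be technical.

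Lipocalins are small, mostly secreted proteins whose barrel-shaped fold encloses a hydrophobic ligand such as a fatty acid, a retinoid or a pigment. NLaz (Neural Lazarillo) and GLaz (Glial Lazarillo) are the fly relatives of vertebrate apolipoprotein D. NLaz is known in flies as a gene induced by JNK signalling that restrains insulin signalling and favours stress resistance, and GLaz as a glial lipocalin that protects against oxidative stress. Karl is a further member of the family.

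The arrays gave between 18313 and 18760 values each, with deposited medians of 43.2 to 56.4 intensity units, and 20E replicate 2 had the most empty cells (456) and the most values below 0 (968). Values below are quantile-normalized linear intensities unless stated. Differences are of log2(normalized intensity + 16), 20E minus untreated, after values below 0 were set to 0. Of the 10 haemocyte markers, 6 had an untreated mean above the median of all probe sets (50.3 units), among them the GATA factor gene srp, the collagen IV genes Col4a1 and vkg and the scavenger receptor gene crq. Those not above it were the plasmatocyte receptor genes NimC1 and eater, the surface marker gene He and the scavenger receptor gene Sr-CI, while the haemocyte genes Hml and Pxn were barely above it at 52.8 and 54.1 units. Only part of the haemocyte marker list was thus clearly present. Because the 20E contrast chose the 3 genes, their own differences are given as a description with no test.

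In untreated cells no NLaz signal above 0 was recorded, and in every treated sample NLaz was bright. The untreated values were −37.6, −22.8 and −21.6 units in replicates 1 to 3. With 20E they were 1356, 1095 and 1343 units. The groups lay far apart, with 20E replicate 2 the lowest of the treated arrays. The means were −27.3 ± 8.89 and 1265 ± 147 units (SD, n = 3 per group), and since the untreated values are below 0, no fold is given. The same held in the values as deposited, which were −20.8, −33.8 and −19.8 in untreated cells and 1459, 1068 and 1397 in treated cells.

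On the log2 scale the NLaz difference was 6.32. That size is set by the offset, because all 3 untreated values sit at the floor: it was 10.3 with an offset of 1 and 4.37 with an offset of 64. Among the 18080 probe sets with no empty cell, 135 (0.747%) had 3 untreated values at or below 0. Most of these stayed dim, with a median treated mean of −3.80 units. Only 17 of the 135 had every treated value above the median treated mean of all probe sets (52.2 units). By treated mean NLaz was in place 2 of the 135, between CG8757 at 1452 and the engulfment receptor gene NimC4 at 1225 units. The same values chose NLaz, so a high place was to be had from the choice and is a description only. An array signal in bulk RNA cannot tell more cells with the transcript from more transcript per cell, and this holds for each value below.

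GLaz was above 0 in untreated cells, if not far from the median of all probe sets (50.3 units). It was higher on each treated array. Its untreated values were 102, 66.5 and 56.5 units, and its treated values were 196, 146 and 199 units. The groups did not overlap, but the gap from the highest untreated array (replicate 1) to the lowest treated array (replicate 2) was narrow beside that of NLaz. The means were 75.0 ± 23.9 and 180.5 ± 29.7 units (SD, n = 3 per group), a ratio of 2.41, or 2.78 in the values as deposited. The log2 difference was 1.13, against an SD between replicates of 0.304 on that scale. Leaving out 1 array at a time gave 0.98 to 1.33.

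Karl was bright in both groups, and its 2 probe sets showed no separation. Probe set 1628715_a_at, whose suffix marks several transcripts of 1 gene, read 1613, 1321 and 1497 units in untreated cells and 1439, 1429 and 1297 units in treated cells. Its means were 1477 ± 147 and 1388 ± 79.0 units (SD, n = 3 per group), with a log2 difference of −0.085. The groups overlapped, and all 6 values lay within a narrow band. Probe set 1633385_at read 1983, 1413 and 1685 units without the hormone and 1276, 1709 and 1424 units with it. Here too the groups overlapped, with untreated replicate 1 highest and 20E replicate 1 lowest. The means were 1694 ± 285 and 1469.8 ± 220.1 units (SD, n = 3 per group), with a log2 difference of −0.20. Both differences were smaller than the SD between replicates, which was 0.117 and 0.227 on the log2 scale.

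The small downward differences of Karl depend on the scaling. Without normalization between arrays the difference of 1628715_a_at turned to 0.065 and that of 1633385_at was −0.012. In the deposited values of 1628715_a_at, untreated replicate 1 was the lowest array at 1257 units, and after quantile normalization it was the highest. No direction is therefore given for Karl.

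**Figure D1:**
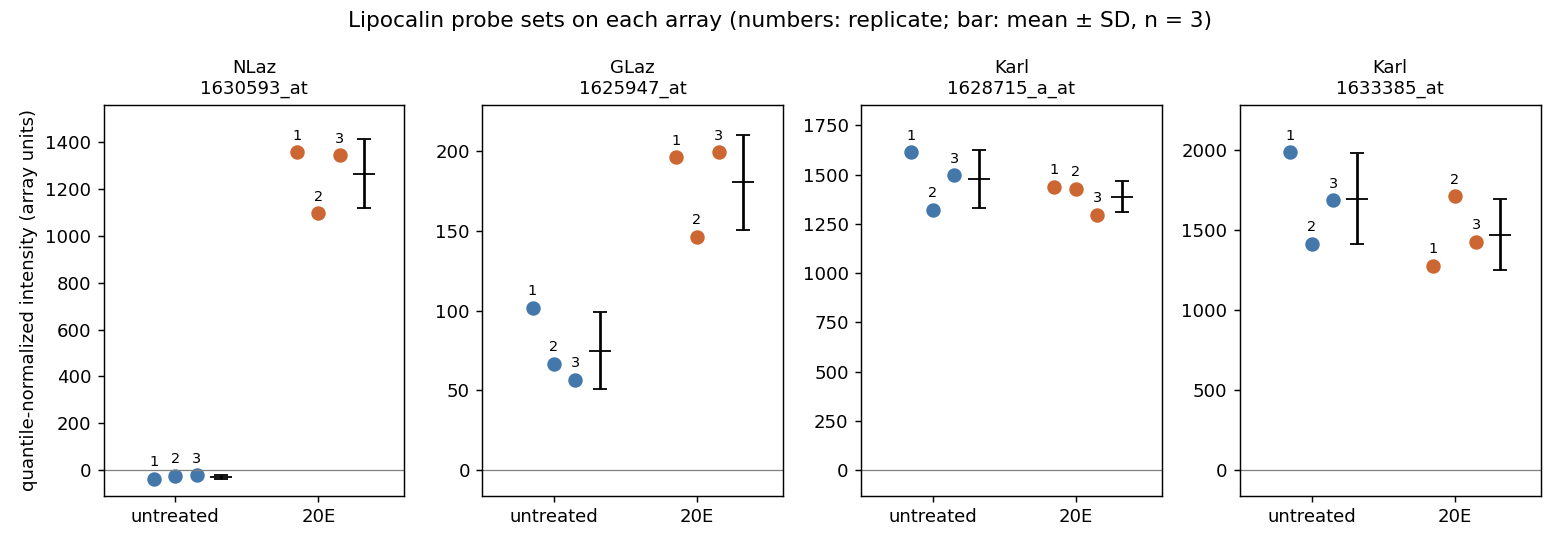
Quantile-normalized intensity (array units, linear axis) of the 4 lipocalin probe sets on each untreated (blue) and 20E (orange) array. Numbers give the replicate and bars the mean ± SD, n = 3. NLaz lies below 0 on all 3 untreated arrays and at 1095 to 1356 units with 20E, GLaz separates from 56.5 to 102 to 146 to 199 units, and both Karl probe sets overlap.

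The 3 genes thus showed 3 patterns: a signal recorded above 0 only with the hormone, a difference of 2.41 in the ratio of means, and a bright signal with overlapping groups. Of the 4 probe sets, 2 were higher with 20E without overlap between groups, where 10.4% of the probe sets with 6 values were. That share is given as background only, since the same contrast chose the genes. Across the 6 arrays NLaz and GLaz had a Pearson correlation of 0.922 on the log2 scale, which rests mainly on the gap between the groups. The 2 Karl probe sets, which share a gene, had r = 0.737, and neither followed NLaz (r = −0.412 and −0.49).

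**Figure D2:**
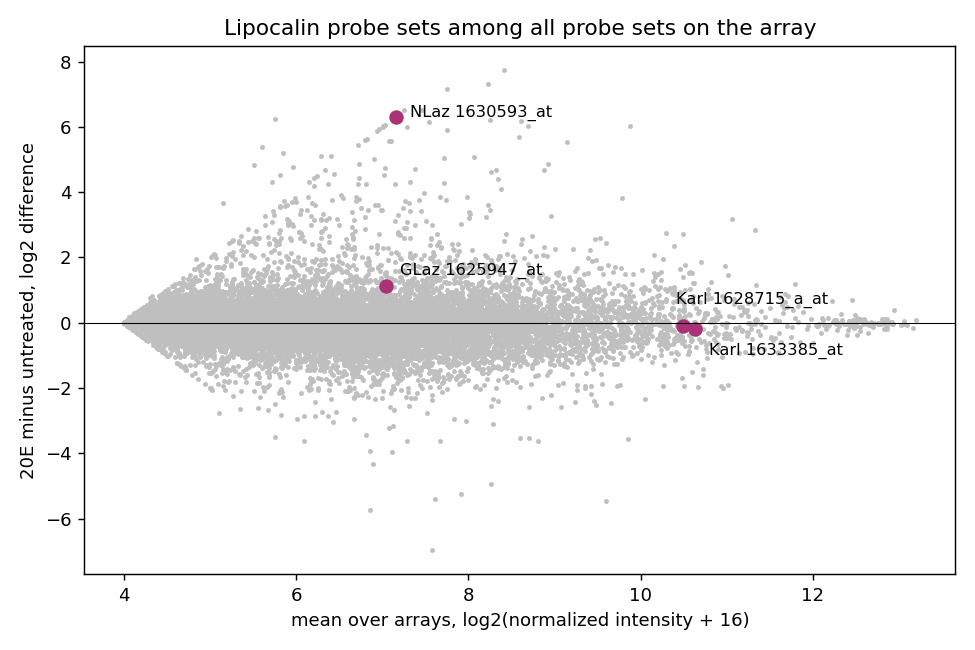
Log2 difference (20E minus untreated) against the mean over arrays of log2(normalized intensity + 16) for every probe set (grey), with the lipocalin probe sets in purple. NLaz stands at 6.32, near the upper edge of the cloud, GLaz at 1.13, and the Karl probe sets at −0.085 and −0.20 among bright probe sets.

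The genes most like each lipocalin were taken by the highest Pearson r over the 6 arrays, among 7118 single-gene probe sets with a value on every array and a level at or above the median. For NLaz these were CG8501, Glut1, CG10621, Tsp42Ed and CG18249, with r from 0.9996 to 0.9998. Glut1 encodes a glucose transporter and Tsp42Ed a tetraspanin. Each of the 5 had a mean below 0 in untreated cells and met the level condition only through the treated arrays. With NLaz at the floor on all untreated arrays, an r near 1 here is fixed by the same contrast that chose NLaz, and the list adds nothing beyond it. Their treated means ran from 101 for Glut1 to 1049.5 for CG10621. For GLaz the nearest were CG6966, CG7536, CG3635, CG15739 and Pld3, a phospholipase D family gene, with r from 0.9928 to 0.9996. Their log2 differences ran from 0.73 to 1.56. All were thus higher with 20E, so these r values also rest on the group gap of the contrast that chose GLaz. CG3635, at 32.8 units in untreated and 68.1 in treated cells, met the level condition only through the treated arrays. Karl's nearest genes differed between its probe sets. For 1628715_a_at they were the splicing factor gene Sf3b1, the RNA-binding protein gene caz, Srp68 of the signal recognition particle, sand and puf, with r from 0.9241 to 0.9626. For 1633385_at they were Dus1, Hacl, the insulator protein gene BEAF-32, the proteasome subunit gene Prosalpha7 and dgt5, with r from 0.958 to 0.9726. With only 6 arrays and so many candidates, these values are descriptions.

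Genes around lipocalin biology were compared between groups in 5 lists, by limma's moderated test, adjusted after Benjamini and Hochberg across the 18767 probe sets of the fit and called under 0.05. Over all probe sets 5.1% were called, and over the 11980 genes tested with 1 probe set each 6.55% were, 3.73% higher and 2.82% lower. The median log2 difference over those genes was −0.024. The lists were chosen with earlier results of these data known, so their counts are descriptions. In all 12 genes of the lists were called. That number was 6 without untreated replicate 3, 20E replicate 1 or 20E replicate 3 and 7 without untreated replicate 2.

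Lipid carriers and their receptors are genes that like the lipocalins serve the movement of hydrophobic molecules. Of 17 measured members 5 rose and none fell, with a median log2 difference of 0.71 over the list. Over all genes 3.73% were called higher. All of the 5 but Mtp are Niemann-Pick type C genes, which make up much of the list. Npc2g, of the Niemann-Pick type C2 sterol-binding family, read 30.2, 19.0 and 20.5 units in untreated cells and 268, 239 and 257 units in treated cells. The treated arrays lay well above the untreated ones and close together, and the difference was 2.80 ± 0.20 (SE, limma adjusted p = 0.000637). Its relative Npc2a rose from 317 ± 18.9 to 1816 ± 300 units (SD, n = 3 per group, limma adjusted p = 0.00126). Mtp, which encodes the microsomal protein that loads lipid onto lipoproteins, rose from 60.6 ± 7.84 to 322 ± 55.2 units (limma adjusted p = 0.00251). Npc2h rose by 1.25 ± 0.22 on the log2 scale (SE, limma adjusted p = 0.0237), and the fifth was the sterol transporter gene Npc1a at 2.00 ± 0.42 (limma adjusted p = 0.0459).

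The calls of Npc2g, Npc2a and Mtp held on leaving out any 1 array. Npc2h was called only without untreated replicate 1 or 20E replicate 2 (highest adjusted p on leaving out 1 array 0.13, limma) and Npc1a only without 20E replicate 2 (0.175), and Npc1a was also lost with an offset of 1 and with median centring. The fatty acid-binding protein gene fabp was bright in both groups and did not pass the test, with a log2 difference of −0.024 (limma adjusted p = 0.972). The lipophorin gene apolpp and the lipophorin receptor genes LpR1 and LpR2 did not pass either, with log2 differences of 2.08, 0.40 and 1.48 (limma adjusted p = 0.19, 0.713 and 0.143). Untreated means of apolpp and LpR2 were −3.30 and 1.08 units, so the sizes of their differences depend on the offset. In 20E replicates 1 to 3 apolpp read 42.1, 9.26 and 206 units, and LpR2 read 60.7, 7.72 and 52.1 units.

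The JNK list holds the kinase cascade that is known to induce NLaz in flies and several of its targets. In it 0 of 12 measured members passed the test, beside 6.55% of all genes, and the median log2 difference was 0.18. A list this short can give no call at that share, so the count alone does not set it apart from all genes. Only transcripts were read, and the activity of the cascade was not tested. Of the 16 listed genes, Tak1, Mmp1, rpr and hid were not analysed here, since no fitted probe set was annotated to them alone under those names. The member with the smallest adjusted p was the JNK kinase gene Mkk4. It read 130, 94.2 and 112 units without the hormone and 396, 197 and 253 units with it, a difference of 1.17 ± 0.29 (SE, limma adjusted p = 0.0731). Its groups did not overlap, and it passed with the replicate block and without 20E replicate 2. The phosphatase gene puc, a widely used JNK target, was at 103 ± 13.1 and 124 ± 44.3 units (SD, n = 3 per group, limma adjusted p = 0.806), with overlapping groups.

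In insulin and TOR signalling, which NLaz is known to restrain in flies, 2 of 11 measured members rose and none fell (median log2 difference 0.24). Among all genes 3.73% were called higher and 2.82% lower. Sesn, which encodes the stress-responsive TOR inhibitor sestrin, read 74.4, 35.9 and 49.0 units in untreated cells and 438 and 456 units in 20E replicates 1 and 3, with an empty cell for 20E replicate 2. The difference was 2.78 ± 0.30 (SE, n = 3 and 2, limma adjusted p = 0.00636). ImpL2, which encodes a secreted insulin-binding protein, rose from 596 ± 198 to 1849 ± 637 units (SD, n = 3 per group, limma adjusted p = 0.0426). The call of Sesn was lost without untreated replicate 3, 20E replicate 1 or 20E replicate 3 (highest adjusted p 0.0579, limma). Leaving out either of those treated arrays left it 1 treated value, taken to vary like the untreated ones. ImpL2 was called only without untreated replicate 1 or 20E replicate 2 (0.187) and was lost with an offset of 1. The transcript of foxo, a transcription factor gene whose protein insulin signalling restrains, was at 36.8 ± 17.4 and 82.7 ± 37.0 units (SD, n = 3 per group, limma adjusted p = 0.334). The protein was not measured.

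Of 13 measured antioxidant genes, 2 rose and 1 fell, where 3.73% of all genes were called higher and 2.82% lower. The list median was −0.026 on the log2 scale. The catalase gene Cat rose from 558 ± 174 to 3686 ± 297 units (SD, n = 3 per group, limma adjusted p = 0.00207). GstS1, a sigma-class glutathione transferase gene, read 5.25, 3.51 and 3.59 units in untreated cells and 269, 113 and 276 units in treated cells. Its 20E replicate 2 was the lowest treated array, as for NLaz and GLaz, and the groups did not overlap (limma adjusted p = 0.00251). GstD1, a delta-class glutathione transferase gene, went the other way, from 3983 ± 466 to 1059 ± 124 units (SD, n = 3 per group, limma adjusted p = 0.00338). These 3 calls held on leaving out any 1 array. The difference of GstS1, whose untreated values are near 0, ran from 2.00 to 5.34 across the alternatives tried.

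Of 13 measured fat storage genes, 2 rose and none fell, beside 3.73% and 2.82% of all genes, with a list median of −0.047. The triglyceride lipase gene bmm rose by 1.71 ± 0.24 (SE, limma adjusted p = 0.0111), from 118 ± 18.5 to 429.7 ± 99.7 units (SD, n = 3 per group). The lipid droplet perilipin gene Lsd-1 rose by 1.52 ± 0.28 (limma adjusted p = 0.0288), from 14.0 ± 4.22 to 72.1 ± 25.4 units. The call of bmm was kept only without untreated replicate 1 or 20E replicate 2 (highest adjusted p on leaving out 1 array 0.0683, limma) and that of Lsd-1 only without 20E replicate 2 (0.147). Across the alternatives the Lsd-1 difference ran from 0.79 to 2.25.

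**Figure D3:**
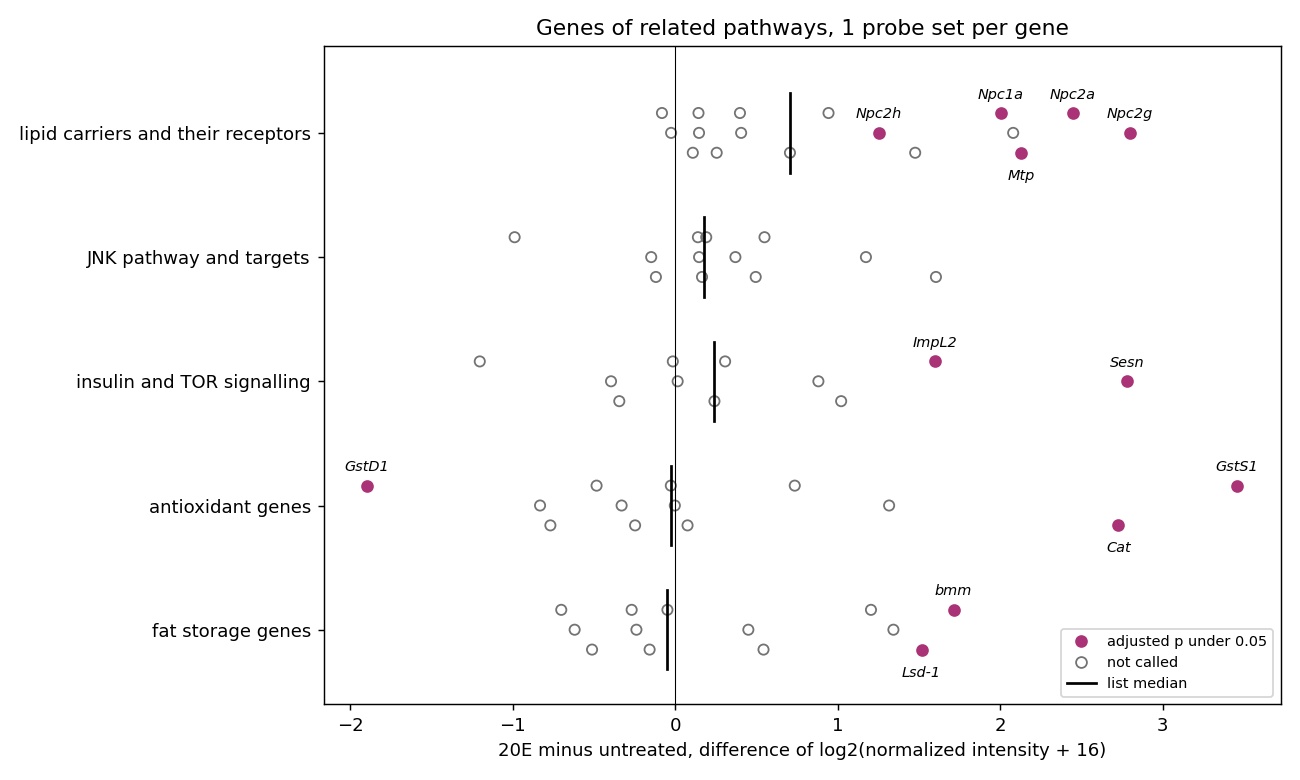
Log2 difference (20E minus untreated) of each measured gene of the 5 lists, 1 probe set per gene, with called genes filled and named and the list median as a bar. Calls lie mostly to the right, with 5 of 17 in the lipid carrier list and 0 of 12 in the JNK list. Over all genes 6.55% were called. GstD1 is the 1 list gene called lower.

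NLaz and GLaz are known from fat body, neurons and glia, so markers of those tissues were read beside them. Of 4 measured fat body markers 1 rose, Fbp2, from 42.3, 14.6 and 26.3 units to 476, 745 and 461 units (limma adjusted p = 0.00126), a call that held on leaving out any 1 array. Among all genes 3.73% were called higher, and a count from so few markers is a description. The summed level of that list ran from 173 to 203 units in untreated and from 594 to 941 units in treated cells, and the rise of that sum came from Fbp2: without it the sums were 146 to 161 and 133 to 197 units. The other 3 markers did not pass. Fbp1, a larval fat body gene like Lsp2, read 42.5, 57.4 and 27.0 units without the hormone and 18.0, 17.4 and 14.4 units with it, lower on each treated array (log2 difference −0.81 ± 0.24, SE, limma adjusted p = 0.135). Lsp2 was at 108 ± 9.36 and 127 ± 36.3 units and Yp1 at 4.88 ± 5.50 and 12.6 ± 3.21 units (SD, n = 3 per group), both with overlapping groups.

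Of 6 measured glial markers 1 rose, where 3.73% of all genes were called higher. That was the receptor gene moody, from 34.9 ± 13.0 to 145 ± 55.9 units (SD, n = 3 per group, limma adjusted p = 0.0446). It was called only without 20E replicate 2 among the fits that left out 1 array, and was lost with an offset of 1 and with median centring. The defining glial gene repo stayed near or below 0, at −10.3, −8.40 and 8.09 units without the hormone and −13.8, −7.21 and −21.7 with it. The summed glial list ran from 423 to 656 units in untreated and from 505 to 949 units in treated cells, most of it from nrv2.

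Of 6 neuron markers 0 passed, with sums of 253 to 484 and 242 to 443 units. Of 3 muscle markers 0 passed, with sums of 2131 to 6310 and 1901 to 3593 units, most of it from Mlc2 (means 4303 and 2662 units). Among all genes 6.55% were called, a share at which lists this short can give no call. Of the 10 haemocyte markers 4 rose, srp, crq, Col4a1 and vkg, where 3.73% of all genes were called higher. The other 6 did not pass. Of these Hml, Pxn, NimC1 and eater had log2 differences of −0.13, −0.31, −0.38 and −0.03, and He and Sr-CI of 0.15 and 1.08. Sums of the list were 2007 to 3328 units in untreated and 6475 to 9603 units in treated cells, most of it from the 4 called genes. With an offset of 1, srp, Col4a1 and crq were lost (limma adjusted p = 0.073, 0.0866 and 0.050003). Each of the 4 was lost on leaving out some single arrays, with highest limma adjusted p of 0.129 for srp, 0.0989 for crq, 0.149 for Col4a1 and 0.0742 for vkg, and srp and Col4a1 passed in only 1 of 6 such fits. The part of any of these markers in the lipocalin differences was not tested.

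**Figure D4:**
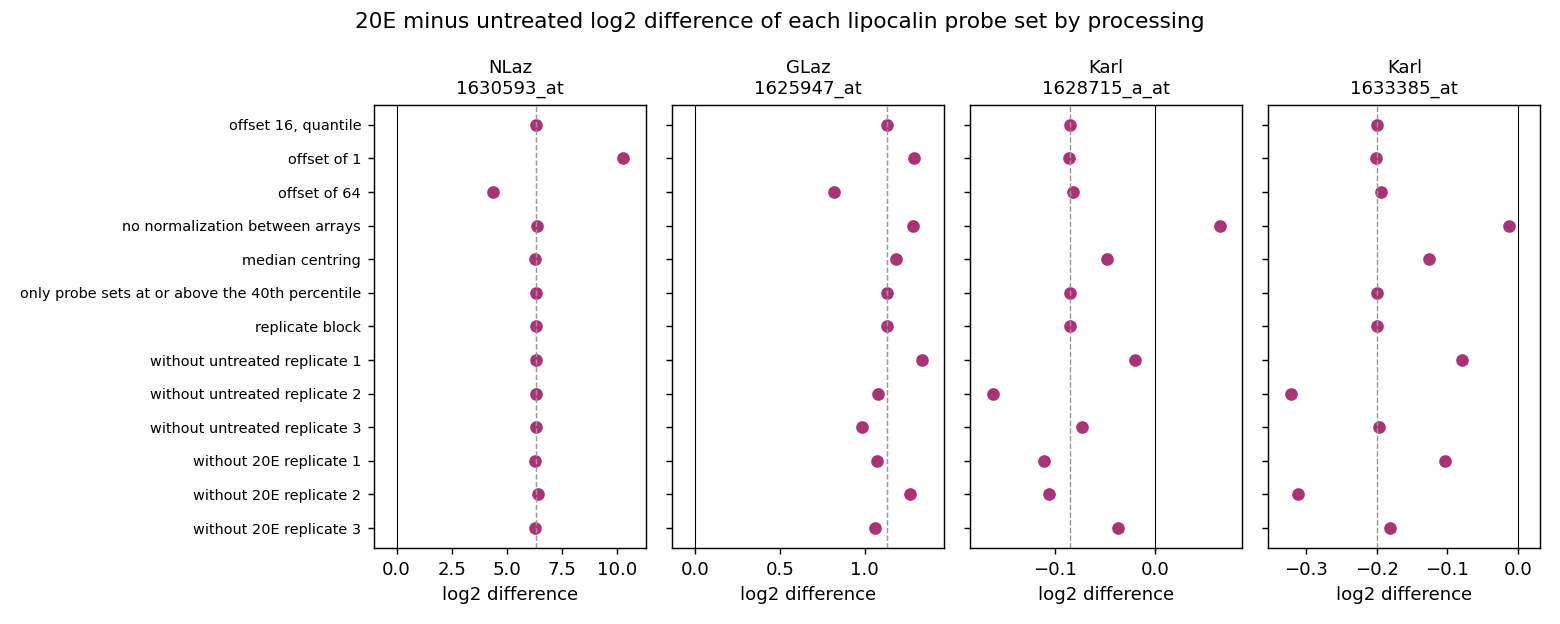
Log2 difference (20E minus untreated) of each lipocalin probe set under each way of processing, with a dashed line at the value reported in the text. NLaz moves with the offset (4.37 to 10.3) and little otherwise, GLaz runs from 0.82 to 1.33, and the difference of the Karl probe set 1628715_a_at crosses 0 without normalization.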

How the data were processed

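RNA of 6 samples was measured on Affymetrix Drosophila 2.0 arrays, per the labels. The deposited table holds linear intensities of 18769 probe sets, of which 736 cells are empty. How the authors summarised, corrected and scaled the probes is not given in the sources used here. Some intensities are below 0, which a background subtraction can give. The intensities were quantile normalized between arrays, floored at 0, offset by 16 and put on the log2 scale. Quantile normalization would remove a change of most transcripts in 1 direction, and the offset shrinks differences between dim values.

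Groups were compared with limma 3.58.1 in R 4.3.3 (two-sided, functions lmFit and eBayes), and p-values were adjusted by Benjamini-Hochberg across the whole table. Too few values were left to fit 2 probe sets. The number of arrays limits precision.

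A gene with several probe sets was read from the brightest. Genes of a list are called measured if a fitted probe set was annotated to that gene alone. Names came from the platform annotation, updated by gene number through RefSeq's gene table for Release 6 plus ISO1 MT. The genes, lists and markers were chosen with earlier results of these data known. Genes named are all members, from each list at most 4 called genes in order of adjusted p, or the gene nearest to a call, and the 5 genes most like each member. Npc1a, fabp, apolpp, LpR1, LpR2, puc, foxo, the cell type markers and the genes set beside NLaz by treated mean were named outside that rule. Alternatives were offsets of 1 and 64, no normalization, median centring, an intensity filter (40th percentile), robust variances with a trend, the replicate block and leaving out each array. A planned comparison with relatives found by protein similarity was not run, since no protein sequences were used here.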

Additional observations from a re-analysis of the deposited data

How the results depend on the processing

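The NLaz and GLaz differences kept their direction under every alternative tried. Their groups do not overlap, so these alternatives could hardly have turned the direction. With an offset of 1 the NLaz difference was 10.3, and with an offset of 64 those of NLaz and GLaz were 4.37 and 0.82. Without normalization between arrays the Karl probe set 1628715_a_at differed by 0.065, against −0.085. The number of probe sets called went from 957 to 567 with an offset of 1, and ranged from 326 to 1069 on leaving out 1 array, where fewer samples are tested. The called list members ranged from 6 to 16 on leaving out 1 array. In the insulin list the kinase gene S6k, named after its values were seen, was called lower with an offset of 64, with the filter, with the replicate block or with the trend model. Same-numbered arrays deviated together with r of 0.238, 0.374 and −0.02, and untreated replicate 1 correlated best with 20E replicate 3 (r = 0.338). With 3 arrays per group such values depend on each other, so they cannot settle whether the numbers are pairs. The main fit did not take them as pairs. With the replicate block 954 probe sets and 16 list members were called, and the member differences were as without it. Comparisons with lipocalin relatives were not run. NLaz levels in untreated cells lie below what these arrays measure, so no size of its change can be given.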

Other observations

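The genes next to the lipocalin genes in RefSeq's Release 6 gene table were read in the same fit, a choice made after the lists were tested. Beside NLaz, CG31659 was at 20.2 ± 12.8 units in untreated and 24.3 ± 11.0 units in treated cells (SD, n = 3 per group, limma adjusted p = 0.853), and CG14346 at 22.8 ± 8.98 and 17.8 ± 11.5 units (limma adjusted p = 0.793). Neither passed the test. Beside GLaz, CG15870 was at 23.6 ± 10.4 and 18.9 ± 6.58 units (SD, n = 3 per group, limma adjusted p = 0.84). On the other side Spt-I, which encodes a subunit of serine palmitoyltransferase, the first enzyme of sphingolipid synthesis, differed by 0.53 ± 0.24 on the log2 scale (SE, limma adjusted p = 0.34). Beside Karl, dy was at 16.2 ± 7.83 and 5.21 ± 6.59 units (SD, n = 3 per group, limma adjusted p = 0.415), and CkIIbeta was not analysed here. None of these 5 neighbours was called, where 5.1% of all probe sets were.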
